A study of Mus musculus with 16 samples.

Results

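Mouse embryonic fibroblasts (MEF) were given the reprogramming factors Klf4, Sox2 and c-Myc, together called KSM, and RNA was taken on day 3. The comparison is between cells that also received Oct4 and cells that received c-JunDN or Jdp2 in its place. There was 1 RNA library of each, so the comparison rests on 3 libraries of the 16 samples in the series. All were OG2 MEF at passage 2, carrying a reporter transgene driven by the Oct4 gene's regulatory sequence. The labels describe a mixed background of 129SVJ, C57B6 and CBA. Another KSM library received DR, a name that the labels do not spell out, and is used as the control. The question, from the study's design, was how cells reprogrammed with Oct4 differ from cells in which an antagonist of the AP-1 factor c-Jun takes its place. Of 20325 gene names, 11060 had at least 5 CPM, which are counts scaled to a common library size, in 1 of the 3 libraries and are called measured. A gene was called higher or lower with Oct4 only if it differed at least 2-fold from each antagonist library. That left 1009 called genes (9.12%), of which 300 (2.71% of those measured) were higher and 709 (6.41%) lower with Oct4.

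Reprogramming to pluripotency asks fibroblasts to silence their own genes and to switch on those of the early embryo. Oct4, encoded by Pou5f1, is a transcription factor that binds an octamer DNA motif and is needed to keep embryonic stem cells (ESC) undifferentiated. AP-1 is a family of dimers of Jun and Fos proteins, and c-Jun drives many genes of the fibroblast state. c-JunDN is a dominant-negative form of c-Jun, and Jdp2 is a small protein that dimerises with Jun proteins and represses AP-1 targets.

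With 1 library a group there is no replicate check and no test. Intervals in brackets are exact conditional binomial 95% intervals of a ratio of 2 libraries. They cover counting error only. Total expected counts were 3440917 with Oct4, 2976932 with c-JunDN, 2623566 with Jdp2 and 2556709 with DR, and 3 counts stood for 0.83 to 1.1 CPM. The 50 most abundant genes took 12.7% to 14.5% of the counts in these libraries. The cells were labelled MEF, but Col1a1, the main fibrillar collagen gene of fibroblasts, was far below its level in wild-type (WT) MEF. It stood at 168.7 to 717.6 CPM in the KSM libraries against 25089.3 CPM in WT MEF. In bulk RNA, fewer cells of a type and less RNA per cell cannot be told apart. Of 16 macrophage markers, Cd68 was the one measured, with 4.73 CPM with Oct4 and 6.6, 11.1 and 15.1 CPM with c-JunDN, Jdp2 and DR. No marker of skeletal muscle was measured.

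The introduced factors matched the labels. Pou5f1 stood at 1710.5 CPM with Oct4, against 8.8 CPM with c-JunDN, 10.5 CPM with Jdp2 and 4.05 CPM with DR, a ratio of 194.4 over c-JunDN (134.4 to 292.9). The Jdp2 gene had 3.9 CPM with Oct4, against 4.71 CPM with c-JunDN, 366.2 CPM with Jdp2 and 2.94 CPM with DR. Jun had 28.1 CPM with Oct4, against 352.2, 86.8 and 67 CPM with c-JunDN, Jdp2 and DR. Both antagonist libraries and DR lay above Oct4 for Jun, and the c-JunDN value cannot separate the introduced form from the cell's own transcript. Sox2, Klf4 and Myc, given to all these cells, were within 2-fold between Oct4 and either antagonist.

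The rule used Oct4 and both antagonists, so their distance is a description. The DR library, which the rule did not use, lay nearer to the antagonists than to Oct4 at the median of the called genes. Differences from DR reuse the Oct4 and antagonist libraries that chose these genes, so its position is set in part by that choice. The same limit holds wherever a called gene is also compared with DR below. Across the 300 higher genes the median log2 difference from DR was 1.87 for Oct4, 0.03 for c-JunDN and 0.0 for Jdp2. Across the 709 lower genes these medians were -1.36 for Oct4, 0.36 for c-JunDN and 0.47 for Jdp2. The antagonists were within 2-fold of each other for 279 of the 300 and 661 of the 709, beside 10793 of all 11060 genes measured. Between themselves they differed by 2-fold in 247 of 10792 genes (2.29%), of which 176 (1.63%) were higher and 71 (0.658%) lower with Jdp2. Against c-JunDN alone 406 genes (3.74% of 10852) were higher and 801 (7.38%) lower with Oct4, and against Jdp2 alone 527 (4.82% of 10934) were higher and 986 (9.02%) lower. Against DR 500 genes (4.65% of 10750) were higher and 717 (6.67%) lower. Of the called genes, 264 of the 300 and 517 of the 709 also differed 2-fold from DR in the same direction. Of the higher genes, 105 differed over 4-fold from both antagonists and 11 over 16-fold, and of the lower genes 167 and 6 did. A gene off in 1 condition can be measured only through the other. So 154 of the higher genes passed the minimum level in the Oct4 library alone, and 376 of the lower genes in the antagonist libraries alone.

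**Figure D1:**
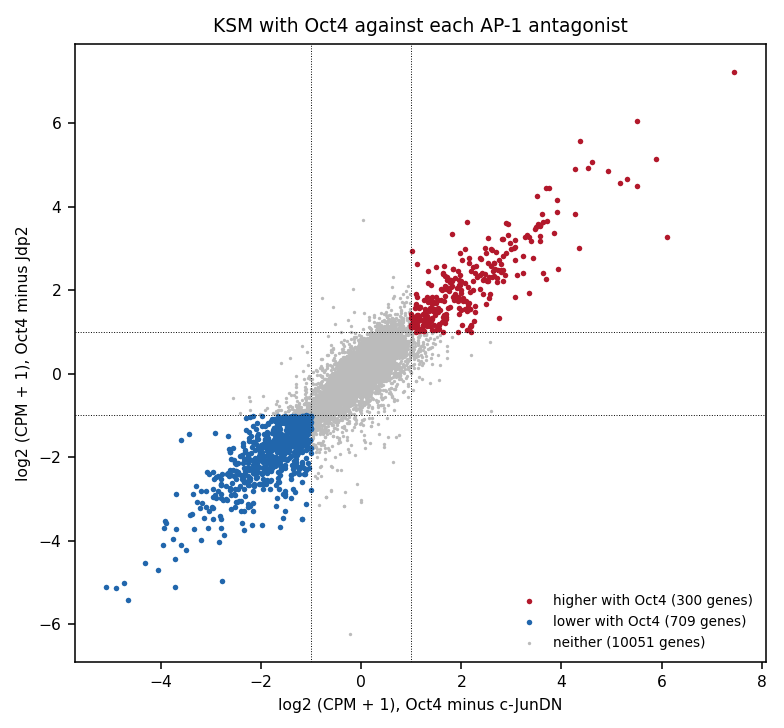
Each point is 1 of 11060 measured genes, with the log2 difference of Oct4 from c-JunDN across and of Oct4 from Jdp2 up, on the log2 (CPM + 1) scale. Dotted lines mark 2-fold, the 300 higher genes lie at upper right and the 709 lower genes at lower left, and both axes share the Oct4 library.

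Of 36 pluripotency genes, 7 were called higher and 2 lower with Oct4, while Nanog and Esrrb stayed near zero. Of the 36, 12 were measured, 7 of them through the Oct4 library alone. L1td1, an RNA-binding protein gene of ESC, had 87.9 CPM with Oct4, against 0.94 CPM with c-JunDN, 0.34 CPM with Jdp2 and 0.37 CPM with DR. Its ratio over c-JunDN, which had 3 counts, was 93.3 (31.6 to 454.9). Tcfcp2l1, a transcription factor gene of naive pluripotency, had 48.1 CPM with Oct4, against 3.14, 4.05 and 2.21 CPM with c-JunDN, Jdp2 and DR. Both genes were thus below 5 CPM in all KSM libraries but that of Oct4. WT ESC held far more of each, with 335.7 CPM of L1td1 and 1532.7 CPM of Tcfcp2l1.

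Sall4, a zinc-finger factor of ESC, had 8.91 CPM with Oct4 and no count in the other KSM libraries, which puts it at least 9.45-fold above c-JunDN and 8.79-fold above Jdp2. Nr0b1, a nuclear receptor gene of ESC, was likewise at 6.4 CPM with Oct4 and at 0 elsewhere, at least 6.79-fold above c-JunDN. Zfp42, the Rex1 marker gene, had 5.84 CPM with Oct4, against 0.31 CPM with c-JunDN, 0.0 CPM with Jdp2 and 0.74 CPM with DR. Low levels thus set these apart from L1td1. Tdh, encoding the threonine dehydrogenase on which mouse ESC depend, had 17.8 CPM with Oct4, against 2.2, 4.39 and 0.74 CPM with c-JunDN, Jdp2 and DR. All of these genes were higher with Oct4 than in the DR library too.

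The lower members were Tbx3, a T-box factor, and Spp1, the osteopontin gene. Tbx3 had 5.84 CPM with Oct4, against 18.5, 21.3 and 18.4 CPM with c-JunDN, Jdp2 and DR. Spp1 had 151.4 CPM with Oct4, against 369.2, 351.7 and 219.0 CPM with c-JunDN, Jdp2 and DR. The homeobox factor Nanog had 0.28 CPM with Oct4, against 0.63, 0.0 and 1.47 CPM with c-JunDN, Jdp2 and DR, and Esrrb had 0.56 CPM with Oct4, against 0.0, 0.0 and 0.74 CPM with c-JunDN, Jdp2 and DR. Dppa2, Dppa3, Dppa4 and Prdm14 had no count in any of these libraries. The median log2 difference of the measured members was 1.84, beside 0.06 over all genes measured, and is set in part by the minimum level. Without one, 9 of 36 were higher, 2 lower and the median was 0.33, and at 20 CPM or more 2 of 5 were higher, 2 lower and the median was 0.3. Summed over the list the level was 1035.9 CPM with Oct4, against 1034.3 CPM with c-JunDN, 870.6 CPM with Jdp2 and 845.2 CPM with DR.

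The 15 genes with the largest differences upward, besides Pou5f1, came from many functions and were mostly near zero without Oct4. L1td1 led them. Aoah, whose enzyme inactivates bacterial lipopolysaccharide, had 58.4 CPM with Oct4, against 0.0, 0.68 and 0.0 CPM with c-JunDN, Jdp2 and DR. Necab1, encoding a neuronal calcium-binding protein, had 67.4 CPM with Oct4, against 1.26, 1.35 and 1.47 CPM with c-JunDN, Jdp2 and DR. Akr1c18, a progesterone-degrading reductase gene, had 77.1 CPM with Oct4, against 2.2, 1.35 and 2.58 CPM with c-JunDN, Jdp2 and DR. None of these reached 5 CPM in the other KSM libraries.

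Nt5e, encoding the ectoenzyme that makes adenosine, was the most abundant of the 15 at 284.7 CPM with Oct4, against 12.9, 5.06 and 5.89 CPM with c-JunDN, Jdp2 and DR. Its ratio was 22.1 over c-JunDN (16.2 to 31.0) and 56.2 over Jdp2 (33.9 to 100.8). Transcription factor genes in the group were Zkscan2, at 76.0 CPM with Oct4, Msc at 29.2 CPM and Dmrtc2 at 44.5 CPM. All 3 were at or below 2.03 CPM in the antagonist libraries. Slc7a3, a transporter of cationic amino acids, had 78.8 CPM with Oct4, against 3.14, 1.69 and 5.15 CPM with c-JunDN, Jdp2 and DR. The receptor subunit gene Gabrb2 had 46.2 CPM with Oct4, against 0.31, 1.01 and 1.1 CPM with c-JunDN, Jdp2 and DR. Tnfsf11, the RANK ligand gene, had 18.6 CPM with Oct4, against 0.31, 0.34 and 0.0 CPM with c-JunDN, Jdp2 and DR. The others were the guanine deaminase gene Gda, the acetylaspartate synthase gene Nat8l, the teneurin gene Odz1 and Tmem229b, at 20.9 to 79.3 CPM with Oct4.

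**Figure D2:**
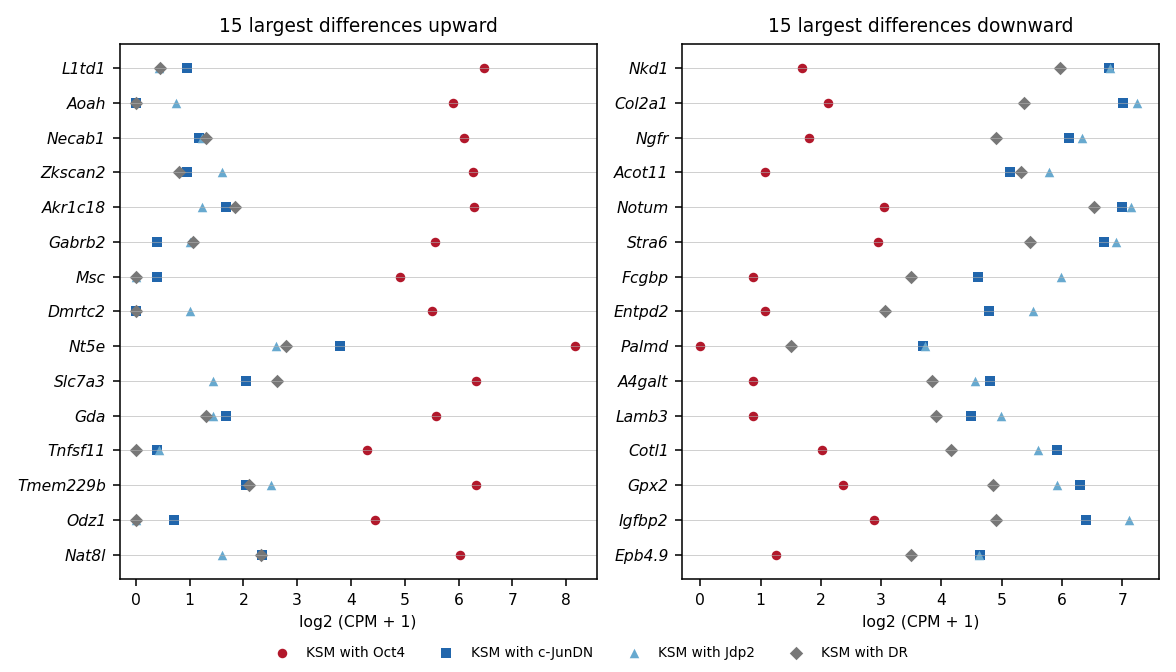
Levels as log2 (CPM + 1) in the 4 KSM libraries of the 15 genes with the largest differences upward (left) and downward (right), 1 gene a row and 1 point a library. On the left DR lies with the antagonists, and on the right it lies below both antagonists for every gene but Acot11, where it lies between them.

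Feedback and target genes of the Wnt pathway made up part of the genes with the largest differences downward. Wnt ligands bind Frizzled receptors and stabilise beta-catenin, which acts with TCF/LEF factors on genes that include the pathway's own inhibitors. This list was chosen after values were seen, so its count is a description. Of 13 measured genes, 8 (61.5%) were lower and 1 (7.69%) higher with Oct4, with a median log2 difference of -1.65. Shares of this and later lists stand beside 6.41% lower and 2.71% higher over all genes measured. Of the 13, 5 were measured through the antagonist libraries alone. Without a minimum level 9 of 18 were lower and 1 higher, and the median was -1.36. Nkd1, an inducible inhibitor of Dishevelled, had 2.23 CPM with Oct4, against 108.7 CPM with c-JunDN, 110.4 CPM with Jdp2 and 61.5 CPM with DR. It was 48.8-fold lower than with c-JunDN (24.5 to 114.0) and 49.6-fold lower than with Jdp2 (24.9 to 115.8). Notum, encoding an enzyme that strips Wnt ligands of their lipid, had 7.24 CPM with Oct4, against 126.9, 140.1 and 91.7 CPM with c-JunDN, Jdp2 and DR. The antagonist libraries lay close together and above DR for both genes.

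Apcdd1, a membrane inhibitor of Wnt signalling, had 28.4 CPM with Oct4, against 226.5, 328.4 and 131.8 CPM with c-JunDN, Jdp2 and DR. Axin2, a scaffold of the beta-catenin destruction complex, had 14.2 CPM with Oct4, against 71.0, 71.6 and 46.0 CPM with c-JunDN, Jdp2 and DR. Rnf43, a ubiquitin ligase that removes Frizzled receptors, had 3 counts or 0.83 CPM with Oct4, against 7.54, 15.5 and 3.31 CPM with c-JunDN, Jdp2 and DR, and was 9.03-fold lower than with c-JunDN (2.74 to 46.9). DR lay between Oct4 and the antagonists for all 3 of these inhibitors. The R-spondin receptor genes split. Lgr6 had 12.8 CPM with Oct4, against 133.2, 114.8 and 76.6 CPM with c-JunDN, Jdp2 and DR, while Lgr4 had 116.6 CPM with Oct4, against 34.6, 23.3 and 26.5 CPM with c-JunDN, Jdp2 and DR. Sp5, a target-gene repressor, had 1.67 CPM with Oct4, against 5.66, 6.08 and 0.74 CPM with c-JunDN, Jdp2 and DR, so here the DR library lay below that of Oct4. Tcf7, a TCF/LEF factor gene, had 37.9 CPM with Oct4, against 101.2, 88.4 and 78.4 CPM with c-JunDN, Jdp2 and DR. Summed over the list, the level was 279.7 CPM with Oct4, 952.0 CPM with c-JunDN, 981.6 CPM with Jdp2 and 599.3 CPM with DR.

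Ligands, antagonists and targets of the TGF-beta, BMP and Wnt pathways were also mostly lower with Oct4. Of 27 measured genes of this wider list, 16 (59.3%) were lower and 2 (7.41%) higher, with a median log2 difference of -1.36. Of the 27, 9 were measured through the antagonist libraries alone. Without a minimum level 16 of 37 were lower and 3 higher, and the median was -1.1. Bmp7, a BMP ligand gene, had 1 count or 0.28 CPM with Oct4, against 10.7, 19.2 and 2.94 CPM with c-JunDN, Jdp2 and DR, a 38.4-fold difference from c-JunDN (6.44 to 1560.0). Bmp4 had 3 counts or 0.83 CPM with Oct4, against 11.0, 10.8 and 8.83 CPM with c-JunDN, Jdp2 and DR. Id3, an inhibitor of basic helix-loop-helix factors and a BMP target, had 6.12 CPM with Oct4, against 31.1, 34.1 and 48.2 CPM with c-JunDN, Jdp2 and DR. DR was thus nearest to Oct4 for Bmp7 and farthest from it for Id3. Dkk2, a secreted modulator of Wnt co-receptors, had 1.11 CPM with Oct4, against 6.91, 12.2 and 5.89 CPM with c-JunDN, Jdp2 and DR. The higher members were Sfrp1, which binds Wnt ligands, at 34.0 CPM with Oct4, against 5.03, 2.7 and 2.21 CPM with c-JunDN, Jdp2 and DR, and Id2, at 37.6 CPM with Oct4, against 17.6, 16.9 and 28.3 CPM with c-JunDN, Jdp2 and DR.

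Genes of the insulin-like growth factor (IGF) system were lower with Oct4 in 6 of 10 measured members of a list also chosen after values were seen, and none was higher (median -1.70). Igfbp2, an IGF-binding protein gene, had 6.4 CPM with Oct4, against 82.9, 137.7 and 29.1 CPM with c-JunDN, Jdp2 and DR. It was 13.0-fold lower than with c-JunDN (8.45 to 20.8) and 21.5-fold lower than with Jdp2 (14.1 to 34.3). Igfbp5 had 7.79 CPM with Oct4, against 80.7, 80.3 and 54.1 CPM with c-JunDN, Jdp2 and DR, and Igfbp4 had 20 CPM with Oct4, against 171.5, 109.7 and 117.4 CPM with c-JunDN, Jdp2 and DR. The growth factor gene Igf2 itself had 68.7 CPM with Oct4, against 230.6, 279.5 and 131.0 CPM with c-JunDN, Jdp2 and DR. Igfbp7 and the IGF-binding-protein protease gene Htra1 had 6.12 and 2.78 CPM with Oct4, and 9.2 to 22.3 CPM in the other KSM libraries. All 6 were lower with Oct4 than with DR as well.

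Retinoid-handling genes, from the last list chosen in that way, were lower in 4 of 11 measured members and higher in none (median -1.01). Of the 11, 3 were measured through the antagonist libraries alone. Stra6, the cell-surface receptor for retinol uptake, had 6.68 CPM with Oct4, against 102.4, 117.8 and 43.4 CPM with c-JunDN, Jdp2 and DR, a 15.3-fold difference from c-JunDN. The retinoic-acid-binding protein genes Crabp1 and Crabp2 had 29.8 and 97.4 CPM with Oct4, and 96.8 to 324.4 CPM in the other KSM libraries. Cyp26b1, which degrades retinoic acid, had 3.06 CPM with Oct4, against 16.7, 15.5 and 21.7 CPM with c-JunDN, Jdp2 and DR. None of the 4 had a KSM library below that of Oct4.

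Other genes among the 15 largest differences downward belonged to cartilage, nerve and epithelial biology. Col2a1, the cartilage collagen gene, had 3.34 CPM with Oct4, against 128.2, 151.2 and 40.1 CPM with c-JunDN, Jdp2 and DR, and was 38.4-fold lower than with c-JunDN (21.7 to 74.9). Ngfr, the low-affinity neurotrophin receptor gene, had 2.5 CPM with Oct4, against 68.5, 79.7 and 29.1 CPM with c-JunDN, Jdp2 and DR. Entpd2, an ectoenzyme that degrades ATP, had 1.11 CPM with Oct4, against 26.7, 44.6 and 7.36 CPM with c-JunDN, Jdp2 and DR. For these genes DR lay between Oct4 and the antagonists. Lamb3, a laminin chain of epithelial basement membrane, had 3 counts or 0.83 CPM with Oct4, against 21.4, 30.7 and 14.0 CPM with c-JunDN, Jdp2 and DR. Gpx2, a glutathione peroxidase gene, had 4.17 CPM with Oct4, against 77.6, 59.1 and 28.0 CPM with c-JunDN, Jdp2 and DR. Palmd had no count with Oct4, against 11.9, 12.2 and 1.84 CPM with c-JunDN, Jdp2 and DR, which puts it at least 14.3-fold below c-JunDN. Acot11, A4galt, Fcgbp, Cotl1 and Epb4.9 complete the group, at 0.83 to 3.06 CPM with Oct4 and 22.6 to 62.4 CPM with the antagonists.

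Matrix genes of the fibroblast were more often lower than higher with Oct4 in all 3 lists that hold them. Of 33 measured mesenchymal genes, 13 were lower and 1 higher (median -1.04). Lox, the collagen cross-linking oxidase gene, had 7.24 CPM with Oct4, against 63.5, 40.8 and 24.3 CPM with c-JunDN, Jdp2 and DR. Thy1, a fibroblast surface marker, had 6.96 CPM with Oct4, against 49.3, 40.5 and 23.9 CPM with c-JunDN, Jdp2 and DR. Col1a1 had 168.7 CPM with Oct4, against 610.5, 717.6 and 392.0 CPM with c-JunDN, Jdp2 and DR, 3.62-fold lower than with c-JunDN (3.3 to 3.97). The other members named by the rule behaved alike, with Loxl1, Pdgfra and Col5a1 at 4.17, 3.06 and 53.7 CPM with Oct4. Col3a1, another fibrillar collagen, was the higher member, at 637.1 CPM with Oct4, against 308.2, 285.9 and 372.9 CPM with c-JunDN, Jdp2 and DR, but none of 33 was higher on the authors' TPM scale. The transcription factor genes Snai2 and Twist1 were lower, while Vim, the mesenchymal filament gene, was within 2-fold at 2057.3 CPM with Oct4 and 2422.7 CPM with c-JunDN.

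Of 16 measured proteoglycan and elastic fibre genes, 10 were lower and none higher (median -1.57). Of the 16, 5 were measured through the antagonist libraries alone, and without a minimum level 11 of 23 were lower (median -1.18). Fbln2, a fibulin gene, had 128.3 CPM with Oct4, against 550.8, 595.4 and 365.2 CPM with c-JunDN, Jdp2 and DR. Bgn, a small leucine-rich proteoglycan gene, had 54.3 CPM with Oct4, against 232.8, 244.1 and 119.6 CPM with c-JunDN, Jdp2 and DR. Elastin, Eln, had 1 count with Oct4 and was 22.6-fold lower than with c-JunDN (3.61 to 935.8). The fibulin family genes Fbln1 and Efemp1 and the proteoglycan gene Prelp were lower too, at 26.2, 14.2 and 1.95 CPM with Oct4. Basement membrane genes were lower in 5 of 14 and higher in 1 (median -0.45). Lama5, a laminin chain gene, had 135.5 CPM with Oct4, against 596.6, 579.6 and 501.7 CPM with c-JunDN, Jdp2 and DR, and Nid1, which links laminin to collagen, had 105.5 CPM with Oct4, against 509.6, 586.3 and 464.2 CPM with c-JunDN, Jdp2 and DR. Lama2, Lamb1 and Col4a2 were lower as well. The higher member was the collagen gene Col4a6, at 15.3 CPM with Oct4, against 4.71, 4.73 and 11.4 CPM with c-JunDN, Jdp2 and DR. On the authors' TPM scale none of 12 measured basement membrane genes was higher.

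Proteases and their inhibitors were lower in 8 of 19 genes and higher in none (median -0.88). Timp2, an inhibitor of metalloproteinases, had 83.5 CPM with Oct4, against 364.5, 410.8 and 257.7 CPM with c-JunDN, Jdp2 and DR. Plau, the urokinase gene, had 13.6 CPM with Oct4, against 55.6, 59.1 and 32.0 CPM with c-JunDN, Jdp2 and DR. Serpinf1, Adam8 and Adam12 were also lower. In the smooth muscle and contractile list, which also holds matricellular genes, 6 of 13 were lower (median -1.54), or 9 of 21 without a minimum level (median -0.9). Myl9, a myosin light chain gene, had no count with Oct4, against 4.71, 8.1 and 3.68 CPM with c-JunDN, Jdp2 and DR. The actin-binding genes Cnn2 and Tagln had 6.96 and 5.01 CPM with Oct4, and 11.0 to 47.3 CPM in the other KSM libraries. Smooth muscle actin, Acta2, had 7.51 CPM with Oct4, against 22.0, 29.7 and 9.57 CPM with c-JunDN, Jdp2 and DR, and the matricellular genes Cyr61 and Ctgf were lower too. In the cytokine and chemokine list 4 of 11 measured genes were lower and none higher (median -0.92). Among the 4 was Ccl2, which attracts monocytes, at 6.96 CPM with Oct4, against 28.3, 27.7 and 27.2 CPM with c-JunDN, Jdp2 and DR. The others were the receptor gene Il1rl1, the chemokine gene Cxcl14 and the prostaglandin synthase gene Ptges. Of the 11, 4 were measured through the antagonist libraries alone, and without a minimum level 5 of 28 were lower and the median was -0.05.

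Among epithelial genes, the keratins of simple epithelia were lower with Oct4. Of 15 measured genes, 7 were lower and none higher (median -1.19), or 3 of 10 at 20 CPM or more (median -0.43). Of the 15, 4 were measured through the antagonist libraries alone, and without a minimum level 7 of 30 were lower (median -0.9). Krt8, a keratin of simple epithelia, had 38.1 CPM with Oct4, against 198.6, 379.4 and 514.6 CPM with c-JunDN, Jdp2 and DR, 5.21-fold lower than with c-JunDN (4.32 to 6.31). Krt19 had 7.51 CPM with Oct4, against 37.4, 103.3 and 142.5 CPM with c-JunDN, Jdp2 and DR. Krt18, the partner of Krt8 in filaments, had 6.68 CPM with Oct4, against 18.5, 38.8 and 18.0 CPM with c-JunDN, Jdp2 and DR. DR was the highest library for Krt8 and Krt19, and Jdp2 for Krt18. Lower as well were the placental cadherin gene Cdh3, the claudin gene Cldn4 and the tricellular junction gene Lsr, at 1.39 to 5.57 CPM with Oct4. Cdh1, the epithelial cadherin gene, had 37.6 CPM with Oct4, against 20.4, 50.3 and 30.2 CPM with c-JunDN, Jdp2 and DR, and Epcam had 22.0 CPM with Oct4, against 10.1, 19.9 and 13.3 CPM with c-JunDN, Jdp2 and DR. Oct4 lay within the range of the other libraries for Cdh1 and just above it for Epcam.

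**Figure D3:**
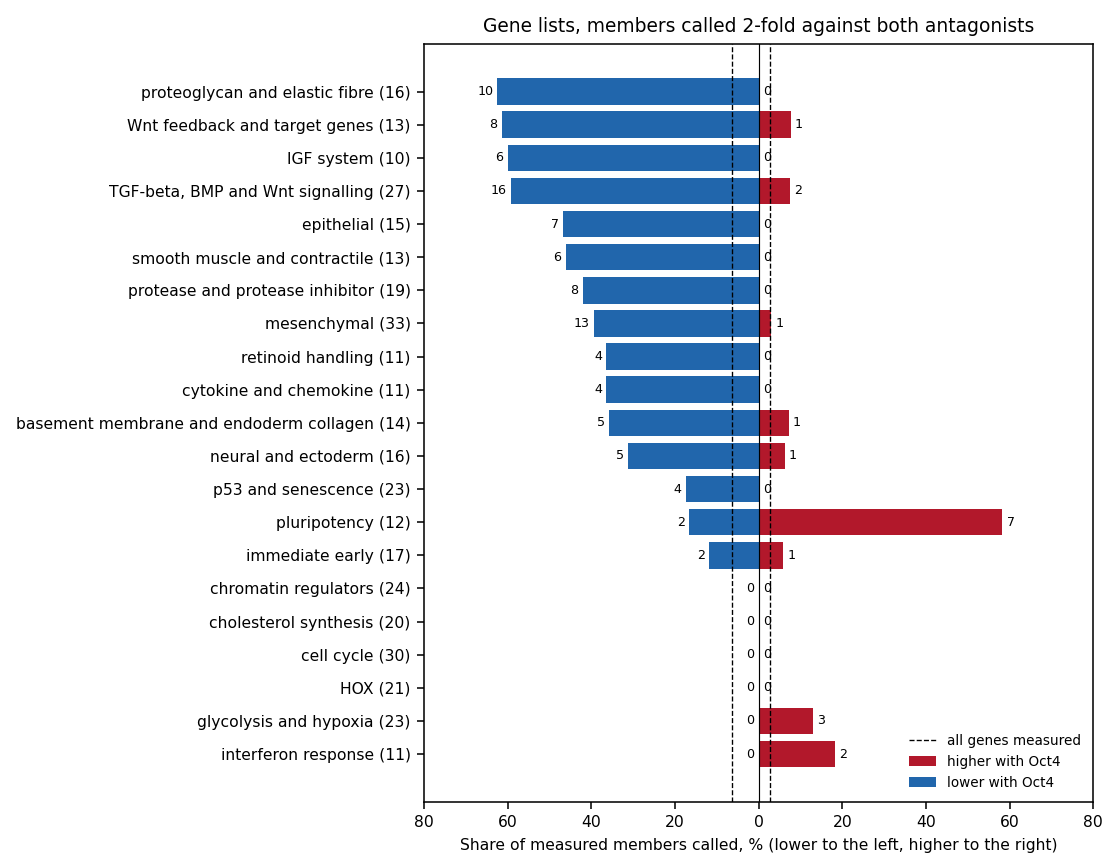
Bars give the share of measured members of each list that was called, in %, with lower genes to the left and higher genes to the right, for lists with at least 10 measured members (their number in brackets). Dashed lines mark 2.71% higher and 6.41% lower over all genes measured, and the small numbers are gene counts.

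Calls in the developmental lists other than HOX were mostly lower ones, as were calls over all genes measured, with 709 lower and 300 higher. Of neural and ectoderm genes, 31.2% were lower and 6.25% higher, beside 6.41% and 2.71% over all genes measured. The mesoderm, endoderm and trophectoderm lists held at most 4 measured genes each. Measured through the antagonist libraries alone were 3 of 4 mesoderm, 1 of 4 endoderm and 2 of 3 trophectoderm genes. Neural and ectoderm genes were lower in 5 of 16 and higher in 1 (median -0.94). Without a minimum level they were lower in 5 of 26 and higher in 2, and the median was -0.18. At 20 CPM or more it was -0.46. Nefl, a neurofilament gene, was the higher member at 61.5 CPM with Oct4, against 30.2 and 22.3 CPM with c-JunDN and Jdp2. DR exceeded them all at 110.8 CPM, and the Nefl call, at a log2 difference of 1.0 from c-JunDN, was lost under 5 alternatives. Nefm and Fabp7 were lower, at 5.01 and 1.67 CPM with Oct4. Of 4 measured mesoderm and cardiac genes, Gata2 and Tbx2 were lower, at 2.78 and 1.95 CPM with Oct4, and of 4 endoderm genes Cxcr4 was lower at 1.67 CPM with Oct4. Peg10, an imprinted gene of retrotransposon origin needed in the placenta, was the higher of 3 trophectoderm genes. It had 161.4 CPM with Oct4, against 25.1, 28.7 and 18.0 CPM with c-JunDN, Jdp2 and DR. None of 21 HOX genes was called, with Hoxb5 and Hoxb6 differing most.

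Glycolysis and hypoxia genes included 3 higher (13.0%) and no lower of 23 (median 0.46), beside 2.71% higher and 6.41% lower over all genes measured. Slc16a3, the lactate exporter gene, had 63.7 CPM with Oct4, against 7.54, 4.39 and 16.9 CPM with c-JunDN, Jdp2 and DR. Bnip3, a mitophagy receptor gene induced by hypoxia, had 34.8 CPM with Oct4, against 4.71, 6.08 and 13.3 CPM with c-JunDN, Jdp2 and DR, and Pfkp, a phosphofructokinase gene, had 235.5 CPM with Oct4, against 75.1, 44.2 and 97.9 CPM with c-JunDN, Jdp2 and DR. All 3 were above DR as well. Interferon response genes were higher in 2 of 11 (18.2%) and lower in none. Of the 11, 1 was measured through the Oct4 library alone and 1 through the antagonist libraries alone. Without a minimum level 4 of 30 were higher and 1 lower, and at 20 CPM or more 1 of 2 was higher. Bst2 had 44.3 CPM with Oct4, against 14.5, 18.9 and 16.6 CPM with c-JunDN, Jdp2 and DR. Gbp2 had 8.63 CPM with Oct4, against 2.2, 1.35 and 2.58 CPM with c-JunDN, Jdp2 and DR. Immediate early genes were lower in 2 of 17 (11.8%) and higher in 1 (5.88%), with a median of -0.85. The higher was Etv5, an ETS factor gene, at 203.7 CPM with Oct4, against 80.7, 61.1 and 72.1 CPM with c-JunDN, Jdp2 and DR. The lower were Dusp5 and Ier3, at 1.11 and 10.9 CPM with Oct4.

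No gene of the cell cycle (30 measured), cholesterol synthesis (20), chromatin (24) or AP-1 (7) lists was called. The AP-1 list does not hold Jun, which stands with the introduced factors and was called lower with Oct4, at log2 differences of -3.6 from c-JunDN and -1.59 from Jdp2. The median log2 differences of the first 3 were 0.36, 0.29 and 0.26, and that of AP-1 was -0.13. Ccnd1, the cyclin D1 gene, differed most in the cell cycle list, at 498.2 CPM with Oct4, against 887.3, 1261.4 and 1058.3 CPM with c-JunDN, Jdp2 and DR. Among AP-1 genes Fosl2 came nearest to a call, at 20 CPM with Oct4, against 40.8, 47.9 and 42.7 CPM with c-JunDN, Jdp2 and DR, and 5 alternatives called it lower. Of 23 p53 and senescence genes, 4 (17.4%) were lower, beside 6.41% of all genes measured, and none higher (median 0.07). These 4 were Igfbp5, the growth-restraint genes Btg2 and Cdkn2b, and the stress cytokine gene Gdf15. Btg2 had 64.8 CPM with Oct4, against 156.8, 206.6 and 183.7 CPM with c-JunDN, Jdp2 and DR.

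Markers of other cell types were sparse. Of 6 measured keratinocyte genes, 5 were measured through the antagonist libraries alone. Among the 6, Sfn was lower at 12.0 CPM with Oct4, against 32.4, 33.4 and 72.1 CPM with c-JunDN, Jdp2 and DR. Krt14, a basal keratin, had 3.62 CPM with Oct4, against 5.97, 20.3 and 21.7 CPM with c-JunDN, Jdp2 and DR. The summed level of the keratinocyte list was 21.4 CPM with Oct4, against 49.6, 105.3 and 135.5 CPM with c-JunDN, Jdp2 and DR, and the defining factor gene Trp63 was at or below 0.56 CPM in all 4. Its part in the lower Krt8, Krt18 and Krt19 was not tested. Of 3 measured endothelial genes, Flt1 was lower at 1.95 CPM with Oct4, against 5.66, 5.06 and 3.68 CPM with c-JunDN, Jdp2 and DR, and the upper bound of its ratio to Jdp2 was 1.0. The erythroid list had Hbb-y, an embryonic globin gene that can share reads with other globins, at 89.1 CPM with Oct4, against 40.5, 13.5 and 33.5 CPM with c-JunDN, Jdp2 and DR.

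Genes nearest the threshold show what a call means here. Psph and Vat1l were just inside on the higher side, with weaker log2 differences of 1.0, and App and Rhob on the lower side, at -1.0. Fam162a and Bex2 were just outside on the higher side at 0.99, and Gas1 and Serpinb9b on the lower side. App had 318.1 CPM with Oct4, against 687.5, 638.0 and 764.2 CPM with c-JunDN, Jdp2 and DR.

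**Figure D4:**
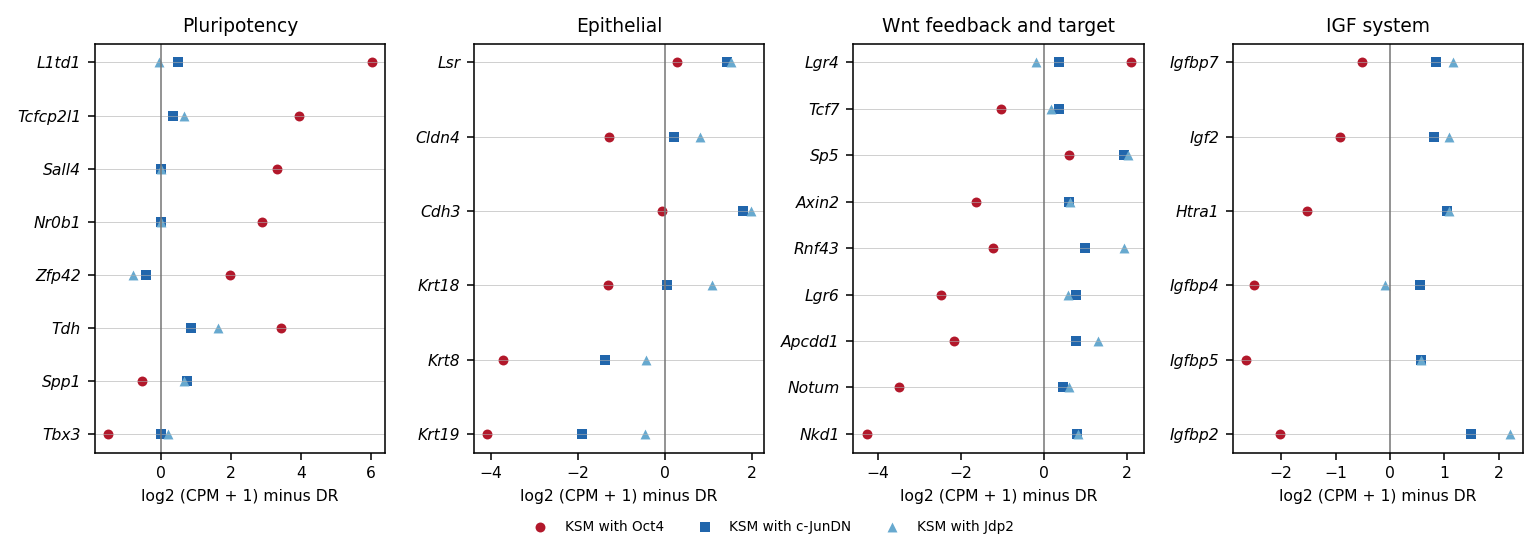
Difference of each KSM library from KSM with DR, as log2 (CPM + 1), for called members of 4 lists, 1 gene a row, with the grey line at the level of DR. For pluripotency genes other than Spp1 the antagonists lie nearer to DR than Oct4 does, while for Wnt feedback and IGF genes most antagonist points lie right of DR and most Oct4 points left of it.

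Promoters were searched for the motifs of the factors involved, in RefSeq sequence of build GRCm38.p6 from 250 bases before to 50 after each start site. Of the called genes, 238 higher and 518 lower ones had a promoter in the table. The octamer ATGCAAAT on either strand was in 4.24% of the promoters of higher genes and 1.66% of those of lower genes, beside 1.27% of all 11469 promoters of measured genes. The AP-1 motif TGANTCA was in 5.76% for higher and 7.62% for lower genes, beside 4.86% of all, and the TCF/LEF motif CTTTGAT was in 2.42% for higher and 2.08% for lower genes, beside 2.45% of all. A match is a description of the letters, not a binding site. The promoters below were chosen after values were seen, to show each motif in a gene described above, with the motif in capitals and no overlap between motifs. Zfp42 (chr8:43306960-43307259, minus strand) and Lgr4 (chr2:109917397-109917696, plus strand) were higher with Oct4 and hold an octamer, which starts 186 and 49 bases before the start site. Igfbp2 (chr1:72825137-72825436, plus strand) and Sp5 (chr2:70474673-70474972, plus strand) were lower, and hold an AP-1 motif 39 bases and a TCF/LEF motif 104 bases before it.
Zfp42: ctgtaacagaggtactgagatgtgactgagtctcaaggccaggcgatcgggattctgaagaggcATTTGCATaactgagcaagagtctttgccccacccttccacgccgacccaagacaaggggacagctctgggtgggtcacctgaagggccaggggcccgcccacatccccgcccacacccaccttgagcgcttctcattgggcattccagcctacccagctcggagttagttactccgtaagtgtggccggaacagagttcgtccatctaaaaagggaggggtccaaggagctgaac
Lgr4: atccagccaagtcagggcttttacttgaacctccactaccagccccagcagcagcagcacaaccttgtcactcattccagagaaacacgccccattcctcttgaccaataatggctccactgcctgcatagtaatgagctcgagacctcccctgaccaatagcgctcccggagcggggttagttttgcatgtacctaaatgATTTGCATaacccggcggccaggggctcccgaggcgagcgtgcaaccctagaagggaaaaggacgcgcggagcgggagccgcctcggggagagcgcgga
Igfbp2: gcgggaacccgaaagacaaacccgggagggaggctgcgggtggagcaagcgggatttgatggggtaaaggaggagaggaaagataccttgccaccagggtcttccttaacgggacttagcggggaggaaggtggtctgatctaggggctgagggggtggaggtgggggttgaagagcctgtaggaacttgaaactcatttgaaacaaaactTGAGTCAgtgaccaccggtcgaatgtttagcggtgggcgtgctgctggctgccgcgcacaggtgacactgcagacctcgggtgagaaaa
Sp5: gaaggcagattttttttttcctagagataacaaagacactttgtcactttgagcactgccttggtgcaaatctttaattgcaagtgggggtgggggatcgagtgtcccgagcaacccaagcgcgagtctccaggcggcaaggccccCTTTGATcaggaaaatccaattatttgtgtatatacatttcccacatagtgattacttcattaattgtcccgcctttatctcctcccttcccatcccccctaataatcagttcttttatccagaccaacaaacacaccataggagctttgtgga

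The same contrast without KSM gave calls in libraries that had no part in choosing these genes. In MEF given Oct4, c-JunDN or Jdp2 alone, 983 of 11517 genes (8.54%) were higher and 854 (7.42%) lower with Oct4 than with both antagonists. The MEF Oct4 library was counted on Ensembl genes and joined to the others by name, on 19758 shared names, so gene model and factor cannot be told apart there. Of the 300 genes higher in KSM with Oct4, 216 were measured in MEF, and 52 of them (24.1%) were higher and 25 (11.6%) lower. Of the 709 lower genes, 558 were measured, and 119 (21.3%) were lower and 65 (11.6%) higher. Over all 10276 genes measured in both contrasts, 6.49% were higher and 5.51% lower in MEF. Calls in both directions were thus more frequent among the members than over all genes, with the same direction the more frequent.

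Of 7 pluripotency genes measured in the MEF contrast, 2 were called higher and none lower with Oct4, beside 8.54% and 7.42% of all genes. The pluripotency genes L1td1, Sall4 and Tcfcp2l1 were not called higher there. In MEF with Oct4, 3 counts stood for 1.59 CPM. L1td1 had 0.53 CPM in MEF with Oct4, against 0.43 and 0.0 CPM with c-JunDN and Jdp2, Sall4 had no count in any of the 3, and Tcfcp2l1 had 1.59 CPM, against 6.07 and 3.74 CPM with c-JunDN and Jdp2. Pou5f1 reached 10358.7 CPM there. Among the genes with the largest differences upward, Gabrb2, Gda, Odz1 and Nat8l were called higher in MEF too. Nat8l had 35.1 CPM in MEF with Oct4, against 1.3 and 1.6 CPM with c-JunDN and Jdp2, and Odz1 had 48.9 CPM, against 0.43 and 9.09 CPM with c-JunDN and Jdp2. Of the genes with the largest differences downward, Nkd1, Acot11, Entpd2, A4galt and Igfbp2 were called lower. Igfbp2 had 9.04 CPM in MEF with Oct4, against 171.3 and 452.3 CPM with c-JunDN and Jdp2, and Nkd1 had 1.59 CPM, against 11.3 and 37.4 CPM with c-JunDN and Jdp2. Proteoglycan and elastic fibre genes were lower in 11 of 22 and higher in 3 in MEF, and interferon response genes lower in 21 of 29 and higher in none. Other lists went the other way in MEF. Neural and ectoderm genes were higher in 7 of 15, cell cycle genes in 9 of 30 and AP-1 genes in 4 of 11, and none of these was lower.

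WT ESC and WT MEF, also outside the comparison, show where the members normally stand. Of the 709 genes lower with Oct4, 380 (53.6%) were at least 2-fold lower in WT ESC than in WT MEF and 123 (17.3%) higher, beside 23.3% lower and 25.5% higher over all genes measured. Their median log2 difference was -1.25. Of the 300 higher genes, 99 (33.0%) were higher and 88 (29.3%) lower in ESC, with a median of 0.05. L1td1, Tcfcp2l1, Sall4 and Tdh were ESC genes in this sense, whereas Necab1, Akr1c18, Gabrb2 and Dmrtc2 were below 1 CPM in both WT cultures. The WT libraries were deeper, at 12173100 counts for ESC and 21415021 counts for MEF.

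**Figure D5:**
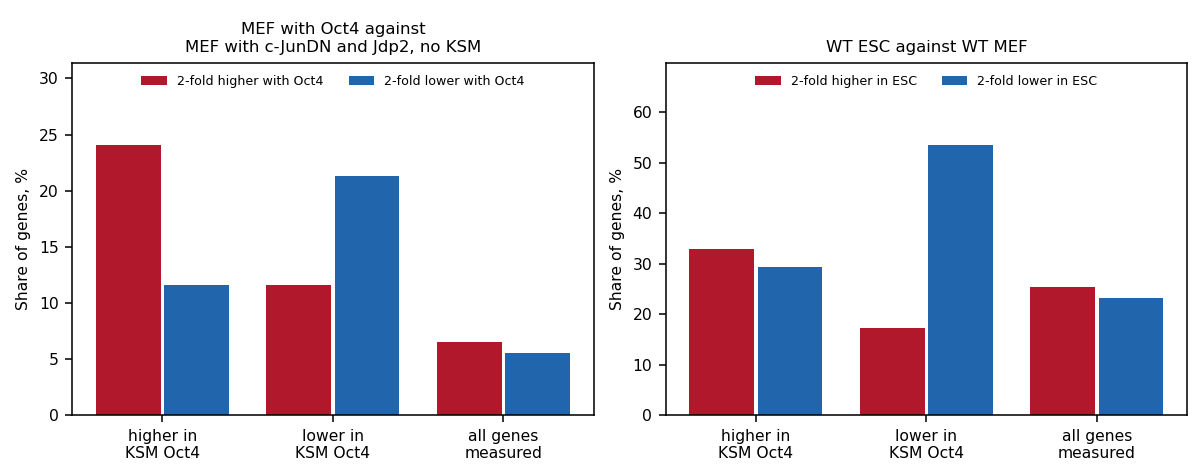
Share of genes, in %, that were 2-fold higher or lower in MEF with Oct4 than in MEF with c-JunDN and Jdp2 (left) and in WT ESC than in WT MEF (right), for genes higher or lower in KSM with Oct4 and for all genes measured. Of the lower genes 53.6% were also lower in ESC, against 23.3% of all genes.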

How the data were processed

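The authors deposited RSEM expected counts per gene for each RNA library, made with RSEM 1.1.21 on mm9, per the submitters' processing notes. The aligner is not given in the sources used here. Per the labels' protocols, Trizol-extracted RNA went into Illumina TruSeq libraries. Of 13 RNA libraries, 12 were counted on RefSeq gene names. The MEF Oct4 library was counted on Ensembl genes, and 97.09% of its counts lay on 19758 shared names. Expected counts were rounded to whole numbers and scaled by TMM in edgeR 4.0.16 under R 4.3.3. The deposited transcript fraction of each gene, and TPM for the MEF Oct4 library, both as the authors gave them, served as an alternative scale. Levels between genes are not compared per length.

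Differences compare log2(CPM + 1) between libraries, so the pseudocount is 1, which understates the change of low genes. A gene was measured at 5 CPM or more in 1 of the compared libraries. It was called at 2-fold against c-JunDN and against Jdp2. With 1 library a group no test was made and no p-value is given. Where a library had no count, the bound uses a floor of 3 counts in that library. Intervals and floors cover counting error only.

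The members and the 28 gene lists were chosen with earlier results of these data known, and 3 more lists after values were seen. Of 608 listed genes 604 were found. The others were not analysed here. The rule for named genes takes the introduced factors, the 15 called genes with the largest weaker difference in each direction, up to 6 called genes of each list, or the 2 that differ most where none is called, and the 2 genes nearest the threshold on each side. Gene models without a name and pseudogenes were left out and a few others are not reported here. Tbx3, Spp1, Id2, Lsr, Col3a1, Snai2, Twist1, Vim, Cdh1, Epcam, Krt14, Nanog and Esrrb lie outside this rule and were named after values were seen. Peak files are on mm9 and were not used here. The calling was tested on simulated counts with counting error only. Variation between cultures and changes near 2-fold were not covered there.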

Additional observations from a re-analysis of the deposited data

Results flagged for a closer look

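Of the called genes, 90 were called in the opposite direction in MEF without KSM. Of these, 25 were higher in KSM and lower in MEF with Oct4, 11.6% of 216 measured there, beside 5.51% of genes measured in both contrasts. The other 65 were lower in KSM and higher in MEF, 11.6% of 558 measured there, beside 6.49%. The difference between the settings was not tested, and the MEF Oct4 library was counted on other gene models. Among genes named by the rule there were 12. All values below are log2 differences of Oct4 from the named antagonist, and no explanation is offered.

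Sfrp1 was 2.54 above c-JunDN and 3.24 above Jdp2 in KSM, but stood at -3.38 and -3.02 against c-JunDN and Jdp2 in MEF. Peg10 was 2.64 and 2.45 above c-JunDN and Jdp2 in KSM, and stood at -1.25 and -2.36 in MEF. The other 10 were lower in KSM and higher in MEF.

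Among Wnt inhibitors, Apcdd1 stood at -2.95 against c-JunDN and -3.49 against Jdp2 in KSM, and at 2.63 and 3.2 in MEF. Rnf43 stood at -2.22 and -3.17 in KSM, and at 1.82 and 2.29 in MEF. Nefm, the neurofilament gene, stood at -1.39 and -1.2 against c-JunDN and Jdp2 in KSM, and at 6.54 and 7.18 in MEF, the widest gap of the 12.

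Fibroblast and matrix genes followed. Thy1 stood at -2.66 against c-JunDN and -2.38 against Jdp2 in KSM, and at 1.42 and 1.53 in MEF. Efemp1 stood at -2.09 and -1.57 in KSM, and at 1.81 and 2.99 in MEF. Ctgf stood at -1.36 and -2.29 in KSM, and at 1.6 and 2.25 in MEF. The protease gene Htra1 stood at -2.58 and -2.62 in KSM, and at 1.44 and 1.59 in MEF.

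Krt19 stood at -2.17 against c-JunDN and -3.61 against Jdp2 in KSM, and at 2.32 and 1.81 in MEF. For Sfn the values were -1.36 and -1.41 in KSM, and 1.43 and 1.5 in MEF. For the phosphatase gene Dusp5 they were -1.27 and -2.35 in KSM, and 1.03 and 1.95 in MEF.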

How the results depend on the processing

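With TMM over the compared libraries, total counts, DESeq2 1.42.0 size factors or the authors' TPM scale, genes higher with Oct4 numbered 206 to 281, beside 300, and genes lower 714 to 819, beside 709. Similar totals did not mean the same genes. On the TPM scale 206 genes were higher and 714 lower, and these held 192 of the 300 and 580 of the 709. The TPM scale shifted the median of all genes by 0.11, from 0.06 to -0.05 on the log2 scale. At 20 CPM or more there were 158 higher and 365 lower genes, 65 apart between Jdp2 and c-JunDN, and 644 higher and 532 lower in MEF, with 24 and 51 shared. A pseudocount of 5 gave 193 higher and 369 lower genes, 80 apart between Jdp2 and c-JunDN and 518 lower in MEF, with 29 and 61 shared. Without a filter 633 genes were apart between Jdp2 and c-JunDN, and 88 higher genes were shared with MEF. Against Jdp2 alone 527 genes were higher. Requiring that the counting interval leave out 1 kept all 300 higher and 690 of the 709 lower genes. Of 852 values of named genes under alternatives, 790 kept their call, 44 lost it, 18 gained one and none reversed. Of 269 list counts, 33 moved by over 1.5 times, and 6 list medians changed sign. Of these, the interferon response median of 0.32 over 11 genes was -0.1 over 30 genes without a filter, the p53 and senescence median of 0.07 was -0.04 on the TPM scale, and the others were of lists of at most 4 measured genes. With counts of 0 set to 3, the pluripotency median was 1.73, beside 1.84. No paired analysis was possible because each group has 1 library, and no replicate could be left out. At these depths a gene under about 1 CPM cannot be told from one that is absent.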

Other observations

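Abundant genes outside the lists were also called. Taking the 10 with the highest level in each direction, Ckb, the brain creatine kinase gene, had 238.2 CPM with Oct4, against 1220.6, 1375.9 and 1147.0 CPM with c-JunDN, Jdp2 and DR. Thbs1, the thrombospondin gene, had 33.7 CPM with Oct4, against 243.2, 367.6 and 162.3 CPM with c-JunDN, Jdp2 and DR. Tnc, encoding the matrix protein tenascin C, had 114.1 CPM with Oct4, against 371.1, 423.3 and 219.0 CPM with c-JunDN, Jdp2 and DR. These lower genes were lower than in DR as well. The retinol-metabolising gene Adh7 was lower at 163.1 CPM with Oct4, against 344.4 and 366.6 CPM with c-JunDN and Jdp2, while DR had the most at 804.3 CPM. The others were Fth1, Lrp1, Ptprv, Gsn, Kif1a and Fgfrl1. Of the higher genes, Ano1, a calcium-activated chloride channel gene, had 430.3 CPM with Oct4, against 69.8, 85.4 and 166.4 CPM with c-JunDN, Jdp2 and DR. Fstl1, a follistatin-like secreted protein gene, had 518.0 CPM with Oct4, against 183.5, 144.5 and 142.5 CPM with c-JunDN, Jdp2 and DR. Cd109, which binds TGF-beta, had 581.7 CPM with Oct4, against 189.5, 144.8 and 380.6 CPM with c-JunDN, Jdp2 and DR. Usp9x, Syne2, Grsf1, Pdlim5, Slc39a14, Kirrel and Pmm1 make up the rest.

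Gene families were also grouped by the stem of their symbol, which cuts across the lists and repeats some of their genes. Among 68 stems with at least 15 measured genes, myosin genes (Myo) were lower in 6 of 16 and higher in none, and semaphorin genes (Sema), which guide axons and vessels, were lower in 5 of 15 and higher in 1. These stems were picked after values were seen. Sema7a had 3.06 CPM with Oct4, against 26.4, 32.1 and 16.9 CPM with c-JunDN, Jdp2 and DR, and Sema3e was the higher one at 11.4 CPM with Oct4, against 4.71, 3.71 and 2.94 CPM with c-JunDN, Jdp2 and DR. Collagen genes (Col) were lower in 8 of 24 (33.3%) and higher in 3 (12.5%), and several of them, such as Col1a1, Col3a1 and Col4a6, were already counted in the lists above. Solute carriers (Slc), the widest stem named here, were lower in 12 of 176 and higher in 6, shares of 6.82% and 3.41% that lie near the 6.41% and 2.71% of all genes measured.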
